A study of Mus musculus with 24 samples.

Results

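OSK expression for 6 days was compared with no treatment in mouse ear fibroblasts labelled 3 months, across all genes of 1 expression table. OSK stands for the transcription factors Oct4 (gene symbol Pou5f1), Sox2 and Klf4, encoded by a transgene that doxycycline switches on. The comparison used 8 of the 24 libraries of the study, chosen by their column names: 4 of cells given doxycycline for 6 days (the OSK group) and 4 of untreated cells (the untreated group), replicates 1 to 4 in each. The other libraries came from cells labelled 24 months and from cells in which doxycycline was withdrawn for 4 days. The 24-month untreated and OSK libraries, 4 in each group, were compared in 1 passage below. Unless stated otherwise, genes were called in a fit of all 24 libraries in 6 groups, which shared 1 estimate of the spread.

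The series describes its cells as ear fibroblasts of mice transgenic for OSK. The promoter that drives the transgene, the strain and sex of the mice, the day on which untreated cells were harvested and whether untreated cells also carried the transgene or met doxycycline are not given in the sources used here. Replicates shared name endings across the groups (b1, b2, C and E for replicates 1 to 4), and what those endings mark is not stated. If libraries of a group came from 1 animal or culture, the p-values measure only the spread between these libraries.

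Oct4, Sox2 and Klf4 are DNA-binding factors that, kept on for long enough, can bring somatic cells to pluripotency. In short induction the cells are exposed to the factors without reaching that state, and a loss of the starting cell's own gene program is usually seen before pluripotency genes appear. Fibroblasts are matrix-producing mesenchymal cells. The outer ear also holds a plate of elastic cartilage, whose chondrocytes make type II collagen and aggrecan, so cultures grown from ear tissue can hold cells of both kinds.

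Values are normalized read counts, and a library's values are given in the order of replicates 1 to 4. Means are given ± SD over the 4 libraries of a group. Changes are log2 differences on the log2(value + 1) scale with their SE, and called genes had an adjusted p under 0.05 in limma, with Benjamini-Hochberg adjustment over all 14138 genes tested. Between 25445933 and 31959372 reads were assigned to genes in each of the 8 libraries. The 10 most abundant genes took 7.85% to 11.5% of the reads, and the most abundant gene was Fn1 in all 8. No pair of replicates agreed within sampling noise, the chi-square per degree of freedom being 29.7 to 64.2.

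Of the genes tested, 5316 (37.6%) were called, 2704 higher with OSK (19.13%) and 2612 lower (18.48%). The 4 OSK libraries lay wholly above or below the 4 untreated libraries for 6306 genes (44.6%). Large changes were about as frequent in both directions: 546 genes rose and 553 fell at least 4-fold, and 129 rose and 122 fell at least 16-fold. The median change of all genes tested was 0.0057.

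The 3 induced factors were all higher with OSK. Pou5f1 (chr17:35506032-35510777 in RefSeq, GRCm38.p6, as are the gene positions below) was at 4.27, 9.33, 1.89 and 2.01 in the untreated libraries and at 2058, 3713, 3392 and 2844 in the OSK libraries. Sox2 (chr3:34649995-34652461) was at 20.3, 17.0, 6.63 and 6.04 untreated and 3034, 3856, 3296 and 2607 with OSK. All 4 OSK libraries stood far above all 4 untreated libraries for both genes. Klf4 (chr4:55527137-55532475) was already at 2827, 2683, 2899 and 1485 in untreated cells and reached 4803, 7044, 5877 and 4541 with OSK, again without overlap. The changes were 9.30 ± 0.61 for Pou5f1, 8.05 ± 0.52 for Sox2 and 1.20 ± 0.31 for Klf4. An exact two-sided permutation test gave p = 0.0286 for each, the smallest value that 4 against 4 libraries allow. A gene count does not tell transcripts of the transgene from those of the cell's own gene.

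**Figure D1:**
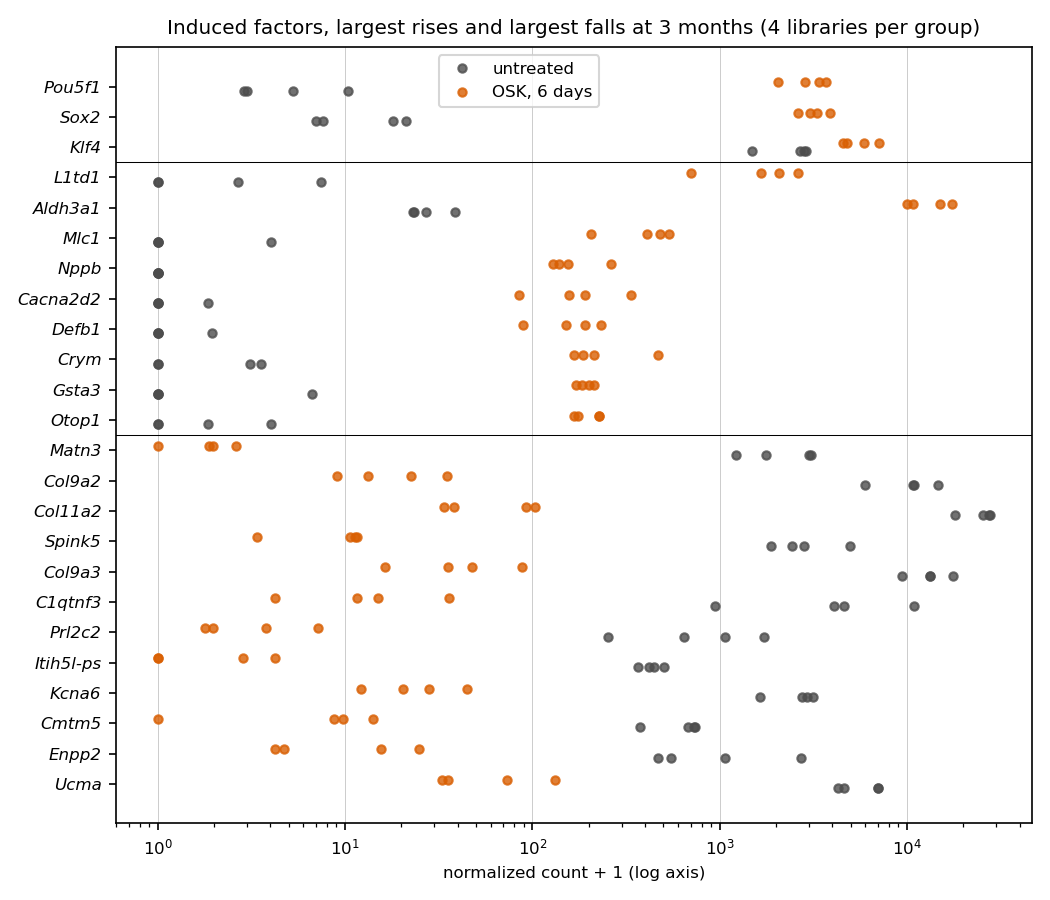
Normalized counts of the 3 induced factors and of the genes with the largest rises and falls, 1 point per library, on a log axis of value + 1. For the rises and falls the OSK and untreated points form 2 separate columns, while Klf4 is at 1485 to 2899 in untreated cells and at 4541 to 7044 with OSK.

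Of 39 genes listed for the pluripotency network, 18 were measured well enough to test. Of these 7 rose (38.9%, against 19.13% of all genes) and 4 fell (22.2%, against 18.48%), with a median change of 0.59. Nanog, the factor that completes the core circuit of pluripotent cells with Oct4 and Sox2, was at 18.1, 12.7, 10.4 and 9.06 untreated and 0, 12.04, 7.75 and 9.69 with OSK and was not called. Among the untested members, Lin28a, Sall4, Dppa2 and Prdm14 had 0 reads in all 8 libraries, for which 3 reads per library is the limit of detection.

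L1td1 (chr4:98726754-98738486), an RNA-binding protein of pluripotent cells, made the largest rise of all named genes on the log2(value + 1) scale. Its untreated libraries were at 6.40, 1.70, 0 and 0 and its OSK libraries at 700.3, 2611, 1663 and 2081, a change of 9.55 ± 0.72 (adjusted p = 1.4e-09). Podxl, which encodes the surface sialomucin podocalyxin, went from 1.11 ± 1.598 to 233 ± 197. Tdh, a threonine-degrading enzyme on which mouse embryonic stem cells depend, was at 0, 0, 0 and 0 untreated and 24.4, 173, 94.9 and 55.5 with OSK, at least 30.0-fold higher. These 3 genes did not overlap between the groups. Fgf4, a direct Oct4 and Sox2 target in embryonic stem cells, was at 0, 0, 0 and 1.01 untreated and 35.6, 109.96, 31.0 and 37.9 with OSK, at least 18.5-fold higher. Lefty1, an inhibitor of Nodal signalling, rose from 30.2 ± 8.67 to 122 ± 30.0. Klf2, Klf5, Alpl and Cd24a, which pluripotent cells also express, fell instead. Klf2, a Klf4 relative, was at 6844, 4712, 8569 and 5242 untreated and 562, 512, 584 and 1049 with OSK, a change of -3.25 ± 0.20. Alpl, the alkaline phosphatase used as a stain for pluripotent colonies, fell by 2.89, and Cd24a, a surface glycoprotein, fell by 2.01 on the log2 scale. Spp1, the osteopontin gene and the most abundant member, was at 45498 ± 9281 untreated and 27276 ± 4379.7 with OSK and was not called, but it was called lower (adjusted p = 0.02) when the replicate number was a block in the fit, and with only the groups compared (adjusted p = 0.0031).

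Other top rises were those of genes of varied function. Aldh3a1, an aldehyde dehydrogenase of cornea and stomach (chr11:61208510-61218418), was at 22.4, 22.1, 37.9 and 26.2 untreated and 10802, 17472, 10031 and 14992 with OSK, 491-fold by the ratio of group means. Mlc1, a membrane protein of astrocytes, had 3 reads or fewer in every untreated library and 203, 477, 533 and 407 with OSK, at least 139.5-fold higher. The groups did not overlap for either gene. Nppb, the brain natriuretic peptide, was at 0, 0, 0 and 0 untreated and 262, 128, 155 and 138 with OSK. Cacna2d2, a calcium channel subunit, Defb1, a beta-defensin, Crym, a thyroid hormone binding protein, and Otop1, a proton channel, were likewise at 3 reads or fewer in every untreated library, and rose at least 66.2-, 56.9-, 89.0- and 68.1-fold.

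Promoters of the genes that moved were searched for short sequence motifs in the 250 bases before the RefSeq start site (GRCm38.p6), of which 11172 of the 14138 tested genes had a window. The octamer ATGCAAAT, the classic Oct4 binding sequence, counted on either strand, was in 1.33% of the windows of tested genes and in 1.61% of all 27025 promoters. It was in 4.66% (18 of 386) of those of genes that rose at least 4-fold and in 1.49% (6 of 402) of those that fell as much. A SOX motif (ACAATGG) was in 1.55% of tested windows, 2.33% of the 4-fold rises and 2.24% of the 4-fold falls, and a KLF motif (GGGTGTGG) in 3.32%, 3.63% and 2.49%. An AP-1 motif (TGACTCA) was in 3.25%, 6.48% and 5.22%, and a TEAD motif (GGAATG) in 10.9%, 15.5% and 14.4%, so both were more frequent in windows of large rises and of large falls alike. The antioxidant response core TGACNNNGC was in 12.1%, 10.9% and 10.7%, and an E2F motif (TTTGGCGC) in 0.823%, 0.518% and 0%. No test was made on these shares, a match does not show binding, and the motifs are short enough that matches arise without function.

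The octamer promoters with the largest rises, predicted genes and clones left out, were those of Pipox, Odaph and Prx, printed here with motif matches in capitals, each as the 250 bases before the start site of the promoter table, 5′ to 3′ on the strand of the gene. For Prx and Gsta3 that start site lies a little inside the gene's RefSeq bounds, which begin further upstream. The windows of Gsta3 and Matn3 follow, for comparison, because they belong to a large rise and to the largest fall without an octamer.

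Pipox, chr11:77893873-77894122 (- strand): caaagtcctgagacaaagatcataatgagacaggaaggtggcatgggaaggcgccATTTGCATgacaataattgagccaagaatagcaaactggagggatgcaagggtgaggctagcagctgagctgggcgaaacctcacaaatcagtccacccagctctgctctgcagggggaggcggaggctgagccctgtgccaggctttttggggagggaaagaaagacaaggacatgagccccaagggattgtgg

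Odaph, chr5:91987223-91987472 (+ strand): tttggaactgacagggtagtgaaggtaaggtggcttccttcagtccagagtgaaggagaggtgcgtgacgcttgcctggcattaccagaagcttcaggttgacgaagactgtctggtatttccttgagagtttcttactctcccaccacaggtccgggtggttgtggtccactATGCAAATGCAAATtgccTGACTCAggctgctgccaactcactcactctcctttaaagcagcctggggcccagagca

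Prx, chr7:27499074-27499323 (+ strand): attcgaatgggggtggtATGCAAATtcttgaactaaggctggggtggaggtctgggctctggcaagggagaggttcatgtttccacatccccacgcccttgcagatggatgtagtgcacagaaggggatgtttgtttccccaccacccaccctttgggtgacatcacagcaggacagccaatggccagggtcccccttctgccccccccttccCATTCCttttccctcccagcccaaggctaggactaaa

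Gsta3, chr1:21240335-21240584 (+ strand): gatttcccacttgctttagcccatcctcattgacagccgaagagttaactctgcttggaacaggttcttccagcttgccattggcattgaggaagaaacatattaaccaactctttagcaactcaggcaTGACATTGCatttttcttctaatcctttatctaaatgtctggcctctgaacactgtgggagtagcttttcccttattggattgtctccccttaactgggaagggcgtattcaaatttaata

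Matn3, chr12:8947679-8947928 (+ strand): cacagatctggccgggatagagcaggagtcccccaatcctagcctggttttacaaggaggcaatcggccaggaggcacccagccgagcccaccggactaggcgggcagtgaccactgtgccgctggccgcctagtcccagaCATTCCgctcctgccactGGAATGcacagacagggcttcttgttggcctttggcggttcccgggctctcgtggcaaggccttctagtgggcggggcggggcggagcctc

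Pipox, whose product breaks down pipecolic acid and sarcosine, holds the octamer on the opposite strand, beginning 195 bases before the start. The gene was at 1.07, 2.55, 0.95 and 2.01 untreated and 224, 317, 223 and 231 with OSK. Odaph, a gene of tooth enamel formation, holds 2 octamers that overlap, beginning 77 and 71 bases before the start, followed by an AP-1 motif, and it was at 0, 0, 3.79 and 3.02 and 138, 128, 152 and 127. Prx, which encodes periaxin, a scaffold protein of myelinating Schwann cells, holds an octamer 233 bases before the start and a TEAD motif, and was at 234, 265, 383 and 221 and 5913, 11440.3, 8865 and 8589. The 3 genes rose by 6.59 ± 0.40, 6.03 ± 0.61 and 4.97 ± 0.22, without overlap between the groups. The window of Gsta3 holds 1 antioxidant response core and that of Matn3 holds 2 TEAD motifs.

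Cartilage genes led the falls. Of 26 listed genes, 25 were tested, 20 fell (80%, against 18.48% of all genes) and 0 rose (limma; 0 rose at an unadjusted p under 0.05, and edgeR and DESeq2 called 0 and 0 higher), and the median change was -4.36. Matn3, matrilin 3, an adaptor of the cartilage collagen network (chr12:8947929-8972028), was at 3054, 1225, 3004 and 1763 in untreated cells and at 0, 1.61, 0.97 and 0.88 with OSK, at least 840.1-fold lower. Col9a2, a chain of type IX collagen, went from 10874, 5946, 14616 and 10793 to 21.6, 8.03, 33.9 and 12.3, and Col11a2, a chain of type XI collagen, from 27847, 17928, 27339 and 25380.2 to 91.9, 32.9, 103 and 37.0. No OSK library came near any untreated library for these genes. Col2a1, the main cartilage collagen (chr15:97975602-98004724), was at 339165, 184662, 336091 and 285699 untreated and 3276, 4948, 9749 and 6263 with OSK, a change of -5.63 ± 0.58 (adjusted p = 1.2e-07). Acan, the aggrecan core protein, fell from 55334 ± 13855 to 653 ± 321, and Hapln1, which links aggrecan to hyaluronan, from 5367 ± 1336 to 103 ± 27.2. Of the transcription factors that run the cartilage program, Sox9 fell from 9856 ± 1071 to 2501 ± 269.7 and Sox5 by 1.42 on the log2 scale, while Sox6 was at 3082 ± 539 and 1503 ± 290.3 and was called lower only with the replicate block (adjusted p = 2.3e-04) or in the DESeq2 and 2-group fits. Fmod, the tendon and cartilage proteoglycan fibromodulin, was at 36015 ± 6309 untreated and 46857 ± 15558 with OSK, and was not called.

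Further large falls were those of Ucma and Col9a3, which are on the list, and of genes outside it. C1qtnf3, also called cartducin, went from 10888, 939, 4588 and 4059 to 14.1, 3.21, 34.9 and 10.6, and Ucma, a Gla protein of cartilage, from 6991, 4623, 7041 and 4255 to 72.2, 32.1, 131 and 34.4. Untreated replicate 2 was the lowest untreated library for Matn3, Col9a2, Col11a2 and C1qtnf3, but stayed far above every OSK library. Spink5, a serine protease inhibitor, fell from 3017 ± 1355 to 8.24 ± 3.91, Kcna6, a potassium channel subunit, from 2602 ± 667 to 25.4 ± 14.0, and Enpp2, the autotaxin enzyme, from 1203 ± 1051 to 11.3 ± 9.81. Prl2c2, a prolactin-family gene with near-identical copies among which reads may be split, went from 251, 1715, 643 and 1065 to 2.81, 0.8, 0.97 and 6.17. The other falls of 12 with the largest change were those of Col9a3 (-8.37), Cmtm5 (-6.68) and Itih5l-ps (-7.85).

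The untreated cultures expressed markers of chondrocytes beside those of fibroblasts. The summed level of 11 chondrocyte markers was 320049 to 567296 in the untreated libraries and 7464 to 16957 in the OSK libraries, with 10 of 11 called lower (18.48% of all genes were). These markers are all on the cartilage list above, so their count repeats part of that result. The summed level of 12 fibroblast markers was 503274 to 629610 and 515281 to 656557, with 4 called higher and 2 lower (19.13% and 18.48% of all genes). Col1a1 and Col1a2 made up most of the fibroblast sum. In bulk RNA, fewer cells of a type and less RNA per cell cannot be told apart, and what part a change in cell makeup has in the results was not tested. Thy1, a surface marker of fibroblasts, was at 1815, 2553, 2173 and 1810.2 untreated and 19524, 21987, 24689 and 19446 with OSK. Pdgfra, a growth factor receptor of fibroblasts, was called higher (9025 ± 3738 to 13954 ± 1326), a call lost in edgeR and DESeq2, with no filter, in limma without trend and robust estimation, and without any 1 of 7 of the 8 libraries (all but untreated replicate 2). Lum, lumican, fell from 6691 ± 3346 to 1407 ± 580.3. Col1a1, Col1a2 and Pdgfrb were not called.

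Markers of other cell types summed to less than those of fibroblasts and of chondrocytes in untreated cells, and some were at 0. Of the keratinocyte markers, Krt1, Dsg3, Dsc3 and Ivl were at 0 in all 8 libraries, and the sum of 10 was 261.5 to 479.9 untreated and 508.4 to 726.2 with OSK. Of the melanocyte markers, Tyr, Tyrp1 and Sox10 were at 0, and the sum of 7 was 235.9 to 347.4 untreated and 126.9 to 153.3 with OSK. The 11 leukocyte markers summed to 227.2 to 259.4 and 166.6 to 335.6. The 9 endothelial markers summed to 99.7 to 131.5 untreated and 1318 to 1873 with OSK, most of it from Tek, the angiopoietin receptor, at 4.27, 34.0, 31.2 and 10.1 untreated and 1258, 1798, 1307 and 1344 with OSK, while Pecam1, Cdh5 and Kdr were at means of 3.81, 1.08 and 1.79 with OSK. The 7 adipocyte markers summed to 2296 to 3860 and 1257 to 2089. Of the 5 tested, 0 were called by limma, against 37.6% of all genes (3 at an unadjusted p under 0.05, 1 called by edgeR and 2 by DESeq2). The 7 Schwann cell markers summed to 3984 to 7436 and 1462 to 1895, of which S100b, which chondrocytes also express, made up most (5876 ± 1664 untreated, 976 ± 319 with OSK). The 9 skeletal muscle markers summed to 927.3 to 1840 and 642.01 to 846.7, and the 8 smooth muscle or pericyte markers to 9077 to 11332 and 4502 to 6787.

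**Figure D2:**
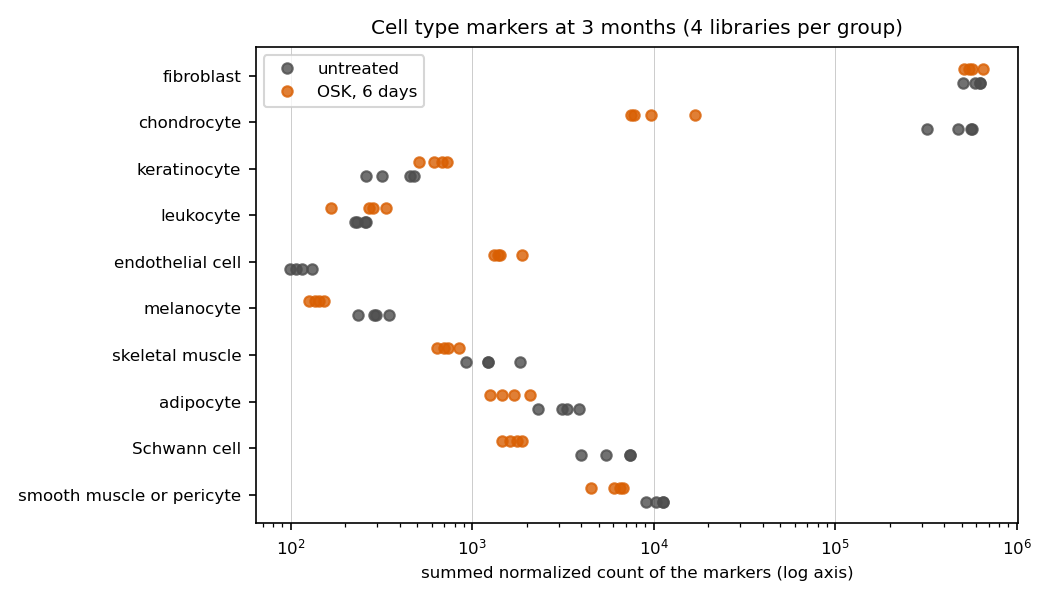
Summed normalized counts of the markers of each cell type, 1 point per library, on a log axis. Fibroblast markers overlap between untreated and OSK libraries, chondrocyte markers are 320049 to 567296 untreated and 7464 to 16957 with OSK, and the other sets lie lower than both in untreated cells.

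The matrix genes of fibroblasts fell in part. Of 34 listed and tested genes, 17 fell (50%, against 18.48% of all genes) and 4 rose (11.8%, against 19.13%), with a median change of -0.78. Eln, the elastic fibre protein elastin, was at 7354, 8299.6, 8494 and 26709 untreated and 51.6, 108, 364 and 358 with OSK. Postn, periostin, a matricellular protein of collagen assembly, was at 20799, 16297, 10016 and 20514 and 807, 303, 405 and 595, and Lox, the enzyme that crosslinks collagen and elastin, at 416459, 237128, 285475 and 385270 and 27661, 12346, 20442 and 20719. In all 3 the groups stood apart. The subunits of type VI collagen split: Col6a1 and Col6a2 fell by 1.52 and 1.62 on the log2 scale, while Col6a3 rose from 12823 ± 4427 to 27495 ± 7109. Type I collagen did not follow: Col1a1 was at 163307 ± 24606 untreated and 189273 ± 29034 with OSK, and Col1a2 at 219164 ± 16311 and 210706 ± 28141, neither called. Type III collagen (Col3a1) fell by 0.91. Fbn1, fibrillin 1, the microfibril scaffold on which elastin is laid, rose from 17333 ± 2764 to 39467 ± 8640.2, and Thbs2, thrombospondin 2, from 3213 ± 802 to 7458 ± 1628. Serpinh1, the collagen chaperone, and Plod2, a lysyl hydroxylase of collagen, fell by 1.48 and 1.61. Fn1, fibronectin, the most abundant gene, was at 845611 ± 102116 untreated and 542258 ± 58783 with OSK. It was not called in the fit of all libraries (adjusted p = 0.096) and was called lower when only the groups compared were fitted (adjusted p = 0.0011).

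Contractile genes were called about as often as all genes in either direction. Of 25 tested, 4 rose (16%, against 19.13% of all genes) and 5 fell (20%, against 18.48%), and 8 fell with the replicate block in the fit. Cnn1, calponin, a marker of contractile myofibroblasts, was at 1831, 1444, 3639 and 1483 untreated and 46.9, 38.5, 121 and 27.3 with OSK. Actg2, the gamma actin of enteric smooth muscle, went the other way, from 28.8, 45.8, 12.3 and 10.1 to 1218, 2819, 1749.8 and 2211. Acta2 and Tagln, the usual myofibroblast markers, were at 14180.3 ± 3822 and 6105 ± 1894 untreated and 7852 ± 2027 and 3225 ± 1249 with OSK, and were not called (adjusted p = 0.051 and 0.074). Both were called lower with the replicate block (adjusted p = 0.0016 and 1.7e-04) and when OSK replicate 3 was left out, as was Tagln without untreated replicate 1. Acta2 was also called lower in DESeq2, with only the groups compared, with upper-quartile scaling and with the filter at 50. Lmod1, which nucleates actin filaments, fell by 2.47, Ccn2, connective tissue growth factor, by 1.99, and Myh9, non-muscle myosin, rose by 0.85.

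Of 26 transcription factors of the mesenchymal state tested, 8 rose, 5 fell and 13 were not called (30.8% and 19.2% called higher and lower, against 19.13% and 18.48% of all genes), with a median of 0.16. The Snail factors, which repress epithelial genes, fell: Snai1 was at 3074, 2817, 3382 and 2814 untreated and 1551, 695, 664 and 770.05 with OSK, and Snai2 fell from 4772 ± 774 to 2041 ± 176. Twist1 (2723 ± 362 and 3130.2 ± 85.7) and Zeb1 (2102 ± 163 and 2502 ± 318), which act in the same direction, were not called. Foxc2, a forkhead factor of mesenchyme, fell by 2.04 and Osr1, an odd-skipped factor, by 1.19. Tbx18, a factor of dermal papilla and other mesenchyme, rose from 114 ± 37.0 to 507 ± 70.2, Tbx15 from 2776 ± 679.5 to 6385 ± 1149, and Foxp1 by 0.99. Prrx1, which marks limb and skin mesenchyme, rose from 9828 ± 1422 to 15756 ± 1812.

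Epithelial genes rose in a subset. Of 37 listed, 24 were tested, 10 rose (41.7%, against 19.13% of all genes) and 1 fell (4.17%, against 18.48%), with a median of 0.69. Simple keratins were among the rises. Krt19 was at 283, 431, 319 and 534 untreated and 7376, 6808, 7054 and 7053 with OSK, Krt18 went from 15.8 ± 7.07 to 198 ± 84.8, and Krt8, its partner in the filament, from 212 ± 38.4 to 1058 ± 461. Itgb4, the integrin of hemidesmosomes, rose by 2.62 ± 0.30 and Jup, plakoglobin, by 2.48 ± 0.35. Ehf, an epithelial ETS factor, rose by 2.15. Cdh1, E-cadherin, rose to a low level, from 33.1, 34.0, 29.3 and 25.2 to 92.8, 113, 87.2 and 77.5, with no overlap. Epcam (44.6 ± 13.5 and 54.5 ± 9.70), Cldn3 and Cldn7, surface genes of the same program, were not called, and Grhl2, Ovol1 and Ovol2, which switch it on, were too low to test. The member that fell was Cdh3, P-cadherin, from 545, 530.4, 495 and 313 to 18.8, 19.3, 2.90 and 16.7.

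Of 52 tested genes of TGF-beta and BMP signalling, 12 were called higher and 16 lower (23.1% and 30.8%, against 19.13% and 18.48% of all genes), with a median of -0.14. The number higher was 7 when OSK replicate 2, OSK replicate 3 or untreated replicate 4 was left out. Among ligands, Inhba, the activin A subunit, fell from 1268 ± 298 to 209 ± 63.0 and Gdf5, a joint and cartilage factor, by 2.92, while Bmp6 rose from 27.6 ± 11.3 to 270.4 ± 48.6 and Bmp4 from 64.2 ± 26.8 to 241 ± 89.6. Of the receptors, Tgfbr2 was at 6184, 11835, 7425 and 6469.6 untreated and 19628, 33638, 29315 and 22206 with OSK, a rise without overlap, and Bmpr1b, the BMP receptor of cartilage, fell by 2.86. Of the latent TGF-beta binding proteins, Ltbp1 rose by 2.04 and Ltbp4 fell by 2.41. The inhibitors Grem1, Bambi, Smad6 and Smad7 fell by 2.05, 2.24, 0.72 and 0.93. The BMP targets Id1, Id2 and Id3 were not called.

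In FGF and WNT signalling 10 of 42 tested genes rose and 14 fell (23.8% and 33.3%, against 19.13% and 18.48% of all genes), with a median of -0.26, and 9 fell without OSK replicate 2. Etv5, Etv4 and Spry4, which FGF signalling through ERK is known to switch on, rose. Etv5 was at 513, 1023, 618 and 320.2 untreated and 3134, 5789, 5611 and 3862 with OSK, Etv4 went from 16.1 ± 11.3 to 129.5 ± 68.3, and Spry4, a feedback inhibitor, from 50.3 ± 20.6 to 353 ± 126. Spry2 rose by 0.78, and Dusp6 and Spry1, of the same kind, were not called. The ligand Fgf18 rose from 29.4 ± 13.0 to 425 ± 123. The receptors went down, Fgfr3, a receptor of chondrocytes, from 5927 ± 1870.1 to 218 ± 77.4, Fgfr4 from 191 ± 80.6 to 3.32 ± 3.78 and Fgfr2 from 5442 ± 721 to 1498 ± 194, while Fgfr1, the main fibroblast receptor, was at 9979 ± 504 and 10788 ± 1316 and was not called. On the WNT side Nkd1, a feedback inhibitor, fell from 277 ± 103 to 10.6 ± 6.17 and Rspo3, a secreted enhancer, from 71.5, 60.2, 88.0 and 68.5 to 0.94, 0, 0 and 0.88. Axin2, the usual readout of WNT signalling through beta-catenin, was at 7.86 ± 4.36 and 7.57 ± 5.99, too low to show a change.

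**Figure D3:**
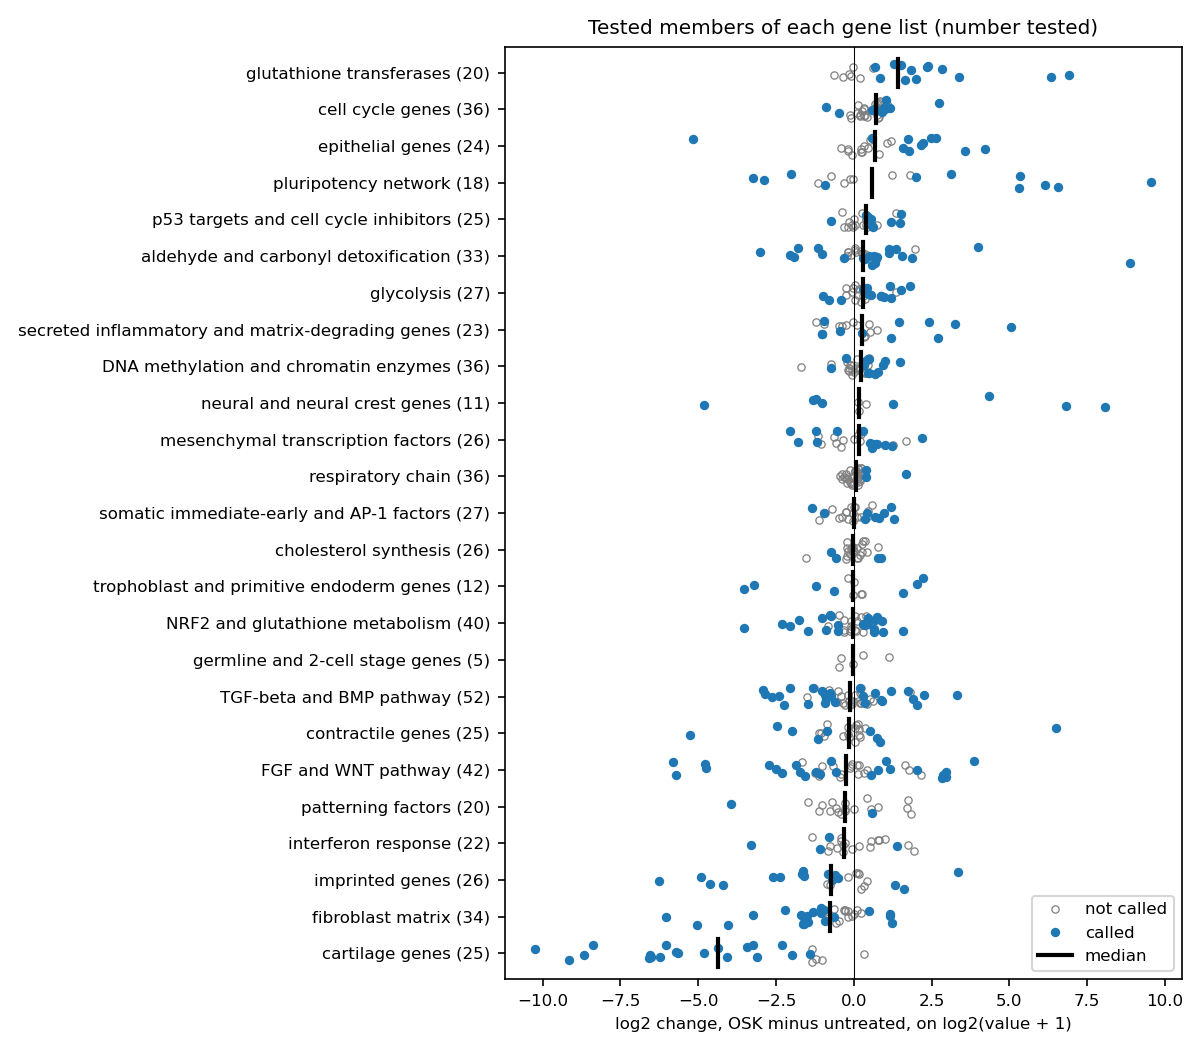
Log2 change of each tested member of 25 gene lists, OSK minus untreated, 1 point per gene, filled where called, with the list's median as a bar. Cartilage genes lie lowest (median -4.36), glutathione transferases are shifted up (median 1.41) and the respiratory chain lies around 0 (median 0.08).

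Glutathione transferases, which couple glutathione to electrophiles such as lipid aldehydes, had 13 of 20 tested genes higher (65%, against 19.13% of all genes) and 0 lower (limma; 0 lower at an unadjusted p under 0.05, and edgeR and DESeq2 called 0 and 0 lower), with a median of 1.41. The largest rises were Gsta3, from 0, 0, 5.68 and 0 to 171, 214, 199 and 183, and Gsta4 (chr9:78191966-78209349), the enzyme specialised for the lipid peroxidation product 4-hydroxynonenal and the gene the study singles out, from 23.5, 34.0, 20.8 and 24.2 to 1199, 2899, 2129 and 2563. Beyond the cytosolic enzymes, the membrane-bound Mgst3 rose from 222, 369, 204 and 395 to 3061, 3136, 2862 and 2841 and Mgst1 from 2341 ± 449 to 5704 ± 512, while Mgst2 was at 977 ± 96.2 and 643 ± 177 and was not called in the fit of all libraries. Mgst2 was called lower when only the groups compared were fitted (adjusted p = 0.013, and 0.002 with the replicate block). Several members have close copies (Gstm1 with Gstm7, Gstp1 with Gstp2), among which reads may have been split.

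The wider NRF2 and glutathione group was called as often higher as lower. Of 40 tested genes 11 rose and 11 fell (27.5% each, against 19.13% and 18.48% of all genes), and the median was -0.03. Nqo1, the quinone reductase most often used as the marker of NRF2 activity, was at 4289, 3019, 4272 and 4936 untreated and 883, 783, 1125 and 1194 with OSK and fell by 2.05 on the log2 scale (adjusted p = 0.0016). Hmox1, Txnrd1, Srxn1, Gclc and Slc7a11, other standard NRF2 targets, were not called. Nfe2l2 itself rose from 2743 ± 251 to 5204 ± 480.1, and Gsr, glutathione reductase, from 640.1 ± 101 to 1887 ± 169. Chac1 and Ggt5, which break glutathione down, fell by 2.29 and 3.54. Of the peroxidases Gpx1 rose by 0.63 and Gpx3, Gpx7 and Gpx8 fell by 1.48, 0.76 and 1.01. Sod1, cytosolic superoxide dismutase, rose by 0.91 and Sod3, the secreted form, fell by 0.90. Fth1, the ferritin heavy chain and the most abundant member, fell by 0.74 and Ftl1, the light chain, rose by 0.68.

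Enzymes that clear aldehydes and carbonyls changed in 22 of 33 tested, 15 higher and 7 lower (45.5% and 21.2%, against 19.13% and 18.48% of all genes), with a median of 0.30. Besides Aldh3a1, Akr1c14, a hydroxysteroid dehydrogenase of the aldo-keto reductase family, rose from 192, 328, 205 and 298 to 2903, 4003, 3793 and 5532, and Aldh2, the mitochondrial enzyme that clears acetaldehyde and 4-hydroxynonenal, from 5455 ± 320.2 to 13924 ± 1794. The cytosolic retinal dehydrogenase Aldh1a1 fell from 5261 ± 2110.5 to 1279 ± 548 and its near-copy Aldh1a7 from 2143 ± 726 to 289 ± 157, a pair between which reads may be split. Aldh1l2, a mitochondrial folate enzyme, fell by 1.93. Akr1a1, the most abundant member, was at 18396 ± 979 and 16027 ± 1077 and was not called, but it was called lower with the replicate block and only the groups compared (adjusted p = 0.046).

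Of 36 cell cycle genes tested, 8 rose (22.2%, against 19.13% of all genes), 2 fell (5.56%, against 18.48%) and 26 were not called, so that 27.8% were called against 37.6% of all genes. Their median change was 0.71, and 23 did not overlap between the groups (63.9%, against 44.6% of all genes). With the replicate block 16 rose, with only the groups compared in the fit 24 rose, and without OSK replicate 3, OSK replicate 4, untreated replicate 3 or untreated replicate 4 only 3 rose. Ccnd1, cyclin D1, stood apart from the rest, at 3251, 3424, 3297 and 2402 untreated and 19417, 17093, 21370 and 25231 with OSK, a change of 2.75 ± 0.30 (adjusted p = 2.1e-07). Mki67, a marker of cycling cells, was at 3525, 2744, 1972 and 2439 and 4941, 4956, 7688 and 6005, with every OSK library above every untreated one. Its change of 1.15 was called, and the call was lost when OSK replicate 3, OSK replicate 4, untreated replicate 3 or untreated replicate 4 was left out. Mcm6, a subunit of the replication helicase, rose by 1.04. The kinases that cyclin D activates went down, Cdk4 by 0.46 and Cdk6 by 0.90. Some inhibitors of these kinases rose. Of 25 inhibitors and p53 targets tested 8 rose and 1 fell (32% and 4%, against 19.13% and 18.48% of all genes). The share called was 36%, against 37.6% of all genes. Cdkn2a, which encodes p16 and Arf, was at 424, 309, 266 and 735 untreated and 1004, 1301, 1004 and 1270.5 with OSK, Cdkn2b went from 313 ± 82.6 to 866 ± 84.4 and Cdkn2d from 417 ± 44.8 to 962 ± 113. The p53 targets Cdkn1a, Mdm2, Ccng1, Bbc3 and Bax were not called.

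Enzymes of DNA methylation and chromatin were called about as often as all genes (38.9% against 37.6%). Of 36 tested 12 rose and 2 fell (33.3% and 5.56%, against 19.13% and 18.48% of all genes), with a median of 0.23. Kdm3a, a demethylase of histone H3 lysine 9, rose from 972 ± 130.3 to 1872 ± 140.1 and Ezh2, the Polycomb methyltransferase, from 566 ± 60.3 to 910.2 ± 65.5. Uhrf1, which guides maintenance methylation, rose by 1.01, a call lost without OSK replicate 1, OSK replicate 3, OSK replicate 4, untreated replicate 2, untreated replicate 3 or untreated replicate 4. Dnmt1, Dnmt3a, Tet1 and Tet2 were not called. Dnmt3b was at 48.5 ± 12.8 untreated and 28.9 ± 9.31 with OSK. This call was lost in edgeR, with no filter, with only the groups compared (with the replicate block too) and without OSK replicate 1, OSK replicate 3, OSK replicate 4, untreated replicate 1, untreated replicate 2 or untreated replicate 3.

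Imprinted genes, which are expressed from 1 parental copy and of which many are highest in growing fetal tissue, had more falls than rises. Of 33 listed, 26 were tested, 14 fell (53.8%, against 18.48% of all genes), 3 rose (11.5%, against 19.13%) and 9 were not called. The groups did not overlap for 13 of them (50%, against 44.6% of all genes), and the median was -0.74. H19, the non-coding RNA of the Igf2 locus, was at 36801, 27373, 35839 and 29396 untreated and 363, 485, 709 and 254 with OSK, and Igf2, the growth factor beside it, at 3126, 5164, 5664 and 4419.8 and 149, 251, 159 and 179. Dlk1, a Notch-related membrane protein of progenitors, went from 598, 743, 1671 and 1486 to 59.1, 14.4, 32.9 and 43.2 and Peg3, a zinc finger factor, from 683 ± 489.97 to 38.2 ± 32.9. The groups stood apart in all 4 of these genes. Mest, the most abundant member, fell from 53537 ± 22520 to 8901 ± 3459.6 and Peg10 from 1316 ± 589.9 to 238 ± 41.8. Meg3 and Rian, non-coding RNAs of the Dlk1 locus, fell by 1.597 and 1.63, the first a call lost without OSK replicate 4 or untreated replicate 3. Gnas, Igf2r and Peg13 were not called. The 3 that rose were Nnat, neuronatin, Slc38a4, an amino acid transporter (68.0 ± 18.5 to 173 ± 50.9), and Mkrn3, at low level (1.77 ± 2.40 to 6.06 ± 4.25), a call lost in edgeR and DESeq2, with only the groups compared (with the replicate block too), with a pseudocount of 5 and without OSK replicate 1, OSK replicate 2, untreated replicate 1 or untreated replicate 3.

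Of 23 secreted inflammatory and matrix-degrading genes tested 7 rose and 4 fell (30.4% and 17.4%, against 19.13% and 18.48% of all genes). Cxcl14, a chemokine of skin, was at 126, 148, 196 and 43.3 untreated and 4450.2, 4427, 5423 and 1869 with OSK. Ccl2, the monocyte chemokine, went from 27.2 ± 8.15 to 260.1 ± 50.3, Ccl7 from 84.2 ± 26.1 to 439 ± 25.9, and Tnfaip3, a feedback inhibitor of NF-kappaB, from 78.9 ± 47.4 to 475 ± 110.1. Csf1, a macrophage growth factor, rose by 1.46. Il6, Cxcl1, Cxcl5 and Mmp3 were not called, and Timp1 and Cxcl12 fell by 1.04 and 1.02. Interferon response genes had 1 rise (Psmb8, an immunoproteasome subunit, by 1.39) and 3 falls (Ifit2, Ifit3 and Ifi44, by 0.79, 1.10 and 3.29) in 22 tested, a share of 18.2% called against 37.6% of all genes. The Ifit3 call was lost without OSK replicate 2, untreated replicate 1 or untreated replicate 2.

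Immediate-early and AP-1 factors of the somatic state had calls in about the proportion of all genes (33.3%, against 37.6%), and the median was 0.01. By direction, 7 of 27 rose and 2 fell (25.9% and 7.41%, against 19.13% and 18.48% of all genes). Fos (5005 ± 1125 untreated, 4849 ± 776 with OSK), Jun (4433 ± 734, 3376 ± 640.1) and Junb (9798 ± 1417, 11584 ± 2509) were not called, though Jun was called lower without OSK replicate 1 and with the replicate block and only the groups compared (adjusted p = 0.0093). Runx1, a factor of connective tissue cells, fell from 3767 ± 97.8 to 1554 ± 613. Egr2 rose by 1.28 and Maff by 1.20. The number that rose was 3 without OSK replicate 2 or untreated replicate 4.

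Glycolysis genes rose in 12 of 27 tested and fell in 3 (44.4% and 11.1%, against 19.13% and 18.48% of all genes), with a median of 0.30. Hk2, an inducible hexokinase, went from 747 ± 107 to 2617 ± 211, Gpi1, glucose phosphate isomerase, from 13031 ± 843 to 30095 ± 4811, and Aldoc, an aldolase, from 838 ± 130.4 to 2436 ± 734. Pfkfb3, which makes the activator of phosphofructokinase, rose by 1.17. Gapdh, Pgk1 and Ldha were not called. The respiratory chain had 3 of 36 genes higher and 0 lower (limma; 1 lower at an unadjusted p under 0.05, and edgeR and DESeq2 called 0 and 0 lower), a share of 8.33% called against 37.6% of all genes tested, and 1 higher without OSK replicate 2, OSK replicate 4, or untreated replicate 1, 2 or 3. Cholesterol synthesis genes had 2 of 26 higher and 2 lower (15.4% called), among them Abca1, the cholesterol exporter, by 0.88, and Srebf1, which fell by 0.74.

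Many genes of other lineages were too low to test. Of 29 germline and 2-cell stage genes 5 were measured well enough to test and 0 were called by limma in either direction, as against 37.6% of all genes (0 at an unadjusted p under 0.05, and edgeR and DESeq2 called 0 and 0). Zscan4c, Tcstv3, Mael and Magea4 were at 0 reads in all 8 libraries. Of 26 neural and neural crest genes 11 were tested, 4 rose and 4 fell (36.4% each, against 19.13% and 18.48% of all genes). Ngfr, a neurotrophin receptor that marks neural crest, was at 4.27, 1.70, 5.68 and 0 untreated and 256, 515, 267 and 428 with OSK, and Nes, the intermediate filament of many progenitors, went from 33.1, 23.8, 28.4 and 8.05 to 433, 459.9, 409.6 and 469.6, while Gfap, which chondrocytes of elastic cartilage can also express, fell from 4499 ± 348 to 167 ± 54.2. Sox1, Sox3 and Sox10 were at 0. Of 12 trophoblast and primitive endoderm genes tested 3 rose and 4 fell (25% and 33.3%, against 19.13% and 18.48% of all genes). Dab2 rose from 4187 ± 624 to 12463 ± 2457, Apoe, a lipid carrier made by many cells, fell from 54675 ± 22411 to 6179.9 ± 3429.7, and Cdx2 and Gata6 were not called. Patterning factors, which record position in the body, had 1 rise and 1 fall in 20 tested, a share of 10% called. The fall was that of Dlx5, a homeobox factor, from 207 ± 68.4 to 12.1 ± 3.33.

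The OSK libraries differed among themselves for some of the genes they raised. Replicate 1 was the lowest OSK library for Pou5f1 and L1td1, and replicate 4 for Sox2, Klf4 and Podxl. Among called genes with an OSK mean of at least 50, the 5 with the widest log2 range over the OSK libraries were Gfra2, a GDNF family receptor (15.0, 311, 451 and 419), Nnat (5.62, 166, 33.9 and 24.7), Gja5, connexin 40 (9.37, 164, 37.8 and 196), Laptm5, a lysosomal protein of blood cells (40.3, 563, 195 and 297), and Trh, thyrotropin-releasing hormone (10.3, 144, 77.5 and 20.3). In each of the 5, OSK replicate 1 was the lowest of the 4. The Gfra2 call was lost with no filter, with only the groups compared, in limma without trend and robust estimation, and without OSK replicate 2, OSK replicate 3, OSK replicate 4, untreated replicate 1 or untreated replicate 4. In untreated cells Gja5 and Trh were at 0 in all 4 libraries, and the others at up to 52.6, 6.79 and 5.68 respectively.

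The same induction in 24-month cells was used to see where the 3-month change differed. The difference between the 2 changes (24 months minus 3 months) was called for 986 genes (6.974%), and for 1568 with the replicate block, and 589 of the 986 were also called at 3 months. The difference was not called for Pou5f1 (-0.89 ± 0.86), Sox2 (-1.37 ± 0.74) or Klf4 (1.18 ± 0.44), but with the replicate block that of Klf4 was called (adjusted p = 0.02). The change of Matn3 was -10.23 at 3 months and -4.69 at 24 months, from an untreated mean of 177 ± 162. Colgalt2, a collagen galactosyltransferase, was at 168 ± 81.0 untreated and 4.17 ± 3.28 with OSK at 3 months and at 17.8 ± 19.6 and 10.3 ± 7.87 at 24 months, and Klk8, a serine protease, at 76.9 ± 25.4 and 6.59 ± 2.44 against 12.6 ± 16.5 and 14.8 ± 4.82. For these 3 genes the untreated level was higher at 3 months. The Colgalt2 difference was not called with the replicate block and only the groups compared (adjusted p = 0.062). Trh rose at both ages, to 62.9 ± 61.4 at 3 months and 1695 ± 1188 at 24 months. In the other direction, Col14a1, a fibril-associated collagen, fell from 4162 ± 2041 to 479.5 ± 243 in the 3-month cells, whereas the 24-month means were 10478 ± 4927 untreated and 17.9 ± 5.59 with OSK. The changes of Megf6 and Pgm5 were -3.07 and -3.28 at 3 months, and -8.46 and -9.64 at 24 months. Adamts15, a protease of the matrix proteoglycans, rose from 35.2, 245, 63.4 and 25.2 to 251, 987, 872 and 533 at 3 months and was at 1253 ± 533 untreated and 416 ± 157 with OSK at 24 months. The differences of these 8 genes lay between -6.36 and 5.53, with adjusted p of 4.3e-05 to 0.017.

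**Figure D4:**
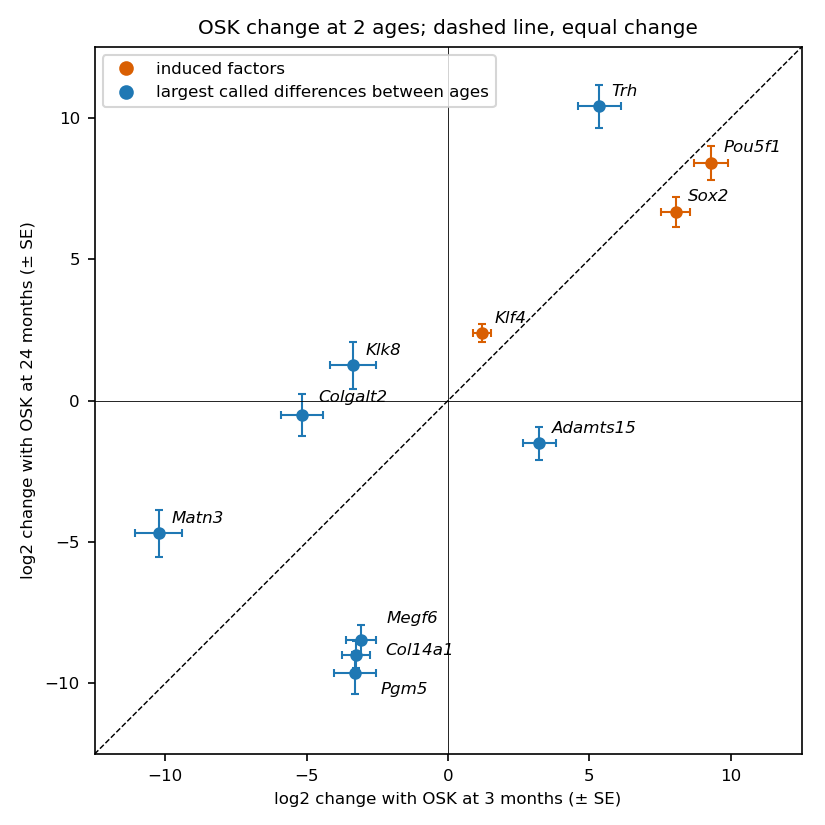
Log2 change with OSK at 3 months against that at 24 months for the 8 genes with the largest called difference among those also called at 3 months with a group mean of at least 50, and for the 3 induced factors, with bars of ± SE on both axes and a line of equal change. The 3 induced factors lie near the line, Pou5f1 and Sox2 a little below it and Klf4 a little above it. Matn3, Colgalt2, Klk8 and Trh lie farther above it, and Col14a1, Megf6, Pgm5 and Adamts15 farther below it.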

How the data were processed

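Polyadenylated RNA of 8 libraries was compared, within a table of 24 libraries and 26206 gene symbols that the authors normalized together. The deposited values are normalized counts (unit: signal), in which the authors scaled the read counts of a library by a single factor. Every value of each library came out as a whole number of reads (100% within 0.1 read), once the value of 1 read had been estimated. Per the submitters' processing notes, STAR 2.7.1a and featureCounts 1.6.2 were used, and GRCm38 (mm10) stands among the builds named. How reads shared by several genes were counted is not given in the sources used here. The kit named in the labels is not described as keeping strand, so reads of overlapping genes cannot be told apart. The 8 libraries held 25445933 to 31959372 recovered reads.

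Samples were grouped by their titles. Values were taken as log2(value + 1), a scale on which changes of weakly expressed genes come out too small. A gene was tested if 4 or more of the 24 libraries reached 10 normalized counts. The test was made with limma 3.58.1 in R 4.3.3 (a coefficient for each group, eBayes with trend and robust estimation, two-sided) with Benjamini-Hochberg adjustment over the 14138 genes tested in each contrast. Where every library of a group had 3 reads or fewer, the fold was computed against 3 reads per library and given as a bound. The exact permutation tests used 70 arrangements. Scripts were tested on simulated data. The replicate numbers in the titles and the shared endings of the library names (a, b, d and e at 24 months) pair the libraries within each age. The deviations from the group means of 3-month untreated and OSK libraries of the same number correlated at 0.17 to 0.21 over genes, against at most 0.023 for other numbers. A fit with the number as a block is given where it changed the 3-month call of a gene given with its values. The block was the number within an age, so it tied no libraries across ages.

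The comparison, the gene lists and the genes named were chosen with earlier results of these data known. Genes named were the 3 induced factors, the 12 largest rises and 12 largest falls among called genes that did not overlap (higher mean at least 50, predicted genes left out), the 3 largest rises and falls and the most abundant member of each list, the 5 called genes (OSK mean at least 50) with the widest log2 range over OSK libraries, and the 4 largest called differences between ages in each direction (genes also called at 3 months, with a group mean of at least 50), besides members that describe a list. Some genes that the rule names are given only in their list's count. A few genes that the rule names are not reported here. Promoter windows are RefSeq sequences of GRCm38.p6. Alternatives were 2 other scalings, pseudocounts of 0.1 and 5, no filter and a filter at 50, only the groups compared, the block, edgeR 4.0.16 and DESeq2 1.42.0 on the recovered reads, limma without trend and robust, other thresholds, and leaving out each library.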

Additional observations from a re-analysis of the deposited data

Results flagged for a closer look

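In the 2 groups of 4 libraries, the genes given with a value above were examined for a library far from its 3 partners (its gap to the nearest of them, as a share of the group's range, exceeding Dixon's critical value for 4 values), in groups whose highest library reached 10. This was met in 32 of 364 groups, where chance alone flags about 1 in 20. OSK replicate 2 was far above its partners for Aldoc at 3537 (others 2049 to 2089), Ccl2 at 336 (others 233 to 236), Crym at 469 (others 166 to 212), Fgf4 at 109.96 (others 31.0 to 37.9), Itgb4 at 5786 (others 2314 to 2815), Pipox at 317 (others 223 to 231) and Tek at 1798 (others 1258 to 1344). OSK replicate 2 was far below its partners for Hapln1 at 62.6 (others 112 to 121), Mcm6 at 2628 (others 2948 to 3006) and Spink5 at 2.41 (others 9.68 to 10.6). OSK replicate 3 was far above its partners for Axin2 at 16.5 (others 3.52 to 5.62), Peg3 at 87.2 (others 15.9 to 25.6) and Rian at 681 (others 270.5 to 313). OSK replicate 3 was far below its partners for Cdh3 at 2.90 (others 16.7 to 19.3). Untreated replicate 4 was far above its partners for Cd24a at 21651 (others 9941 to 11772) and Eln at 26709 (others 7354 to 8494). Untreated replicate 4 was far below its partners for Ccnd1 at 2402 (others 3251 to 3424) and Klf4 at 1485 (others 2683 to 2899). Untreated replicate 3 was far above its partners for Alpl at 92.8 (others 47.0 to 54.3). Untreated replicate 3 was far below its partners for Col1a1 at 126835 (others 170261 to 179086) and Thbs2 at 2014 (others 3537 to 3694). Untreated replicate 2 was far above its partners for Cdh5 at 12.7 (others 0 to 1.07). Untreated replicate 2 was far below its partners for Cmtm5 at 375 (others 674 to 736) and Mgst2 at 834 (others 1007 to 1041). OSK replicate 4 was far above its partners for Ifit2 at 549.8 (others 455 to 464), Klf2 at 1049 (others 512 to 584) and Megf6 at 205 (others 40.1 to 66.8). OSK replicate 1 was far above its partners for Osr1 at 601 (others 375 to 413) and Snai1 at 1551 (others 664 to 770.05). OSK replicate 1 was far below its partners for Myh9 at 53417 (others 61388 to 63004). Untreated replicate 1 was far above its partners for Krt8 at 269 (others 186 to 198) and Lum at 11680.5 (others 4533 to 5366).

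The change with OSK differed between 24 and 3 months, by limma's test of the difference over all genes tested, for 33 of the 200 genes given with a value (6.974% of all genes tested were called). Of these, Pgm5, Col14a1, Megf6, Adamts15, Matn3, Trh, Colgalt2 and Klk8 were named for this difference, so the count is in part fixed by the choice of genes. The change, as 24 months minus 3 months on the log2 scale, was lower at 24 months for Pgm5 (-6.36), Col14a1 (-5.73), Megf6 (-5.39), Adamts15 (-4.74), Postn (-4.04), Tek (-3.61), Apoe (-2.997), Thbs2 (-2.72), Psmb8 (-2.37), Akr1c14 (-2.29), Pdgfra (-2.27), Thy1 (-2.05), Gsta4 (-1.65), Cxcl12 (-1.61), Ltbp1 (-1.58), Col3a1 (-1.57), Col1a1 (-1.49), Sox9 (-1.37), Prrx1 (-1.25), Tbx18 (-1.22), Tgfbr2 (-1.13), Osr1 (-1.05), Pfkfb3 (-0.99) and Cdkn2b (-0.94). It was higher at 24 months for Matn3 (5.53), Trh (5.06), Colgalt2 (4.65), Klk8 (4.60), Fgf4 (3.91), Col2a1 (3.37), Tdh (3.05), Itgb4 (1.73) and Ccn2 (1.71). A lower change did not always go with a lower OSK level. Gsta4 had means of 25.6 untreated and 2198 with OSK at 3 months, and of 304 and 7856 at 24 months. Those of Akr1c14 were 256 and 4058, and 1867 and 5918. For Thbs2 the OSK mean was lower at 24 months (4162, against 7458).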

How the results depend on the processing

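The numbers of genes called at 3 months stayed within 1.5 times under other scalings, pseudocounts, filters, the replicate block (5712 called), edgeR (5314) and DESeq2 (5647 called), and ranged from 4528 to 4931 with 1 library left out (2291 to 2503 higher and 2237 to 2430 lower). With only the groups compared in the fit 6761 were called, and 7080 with the block as well. A threshold of 2-fold left 2396 genes (1216 higher, 1180 lower). The difference between ages depended more on the fit. Its 986 genes (330 higher, 656 lower) became 1568 (516 and 1052) with the replicate block and 1868 (660 and 1208) with the block and only the groups compared. DESeq2 called 536 higher, a threshold of 2-fold left 602 (142 higher), and an adjusted p under 0.01 left 374 (104 and 270). With 1 library left out the counts ranged from 676 to 1371, with 214 to 497 higher and 462 to 874 lower, the lowest without 24-month untreated replicate 1 and the highest without 24-month untreated replicate 3. The cause was not tested. Of 233 genes checked under 20 alternatives (19 for 7 genes too low for the filter at 50), 31 changed their call in at least 1, and none of those called changed sign. Apart from the calls given above with the block, it also changed those of Sfrp2 and Uqcrfs1 among the genes checked, and with only the groups compared those of Fn1, Egr1, Plk2, Il1rl1, B2m and Tshz2. For the difference between ages the block in the fit of all libraries added calls for 25 of the genes checked and ended 0. Genes that reached 10 normalized counts in fewer than 4 of the 24 libraries were left out by the filter.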
